A study of Mus musculus with 2 samples.

Results

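The genes described here are the 7 mouse genes that encode NMDA receptor subunits, Grin1, Grin2a, Grin2b, Grin2c, Grin2d, Grin3a and Grin3b. They were chosen by gene symbol, and all 7 symbols matched 1 gene each among 55536 annotated genes. The 7 genes have 39 of the 141864 transcripts listed in the transcript tables. RNA came from hippocampal tissue of 2 adult female mice of strain B6CASTF1/J, which are F1 hybrids between the C57BL/6J and CAST/EiJ strains, at an age of 8 to 10 months. There was 1 library per animal, made from 300 ng of total RNA with added ERCC spike-ins, which are synthetic transcripts of known amount. Replicate 2 is animal 5 and replicate 1 is animal 1. Both carry the same donor identifier in the labels and were taken as 2 animals by their animal numbers. The libraries share sex, age range, strain and treatment and form 1 group, so no conditions were compared, and the SDs and ratios describe the spread between these 2 samples. The tissue label names a layer of the hippocampus without saying which, and reads from both parental genomes were counted together on 1 reference genome.

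NMDA receptors are glutamate-gated cation channels that open when glutamate and a co-agonist, glycine or D-serine, are bound and depolarisation has expelled magnesium from the pore. Each channel holds a pair of GluN1 subunits, the product of Grin1, together with GluN2 subunits that bind glutamate or GluN3 subunits that bind glycine. In the hippocampus GluN2A and GluN2B, the products of Grin2a and Grin2b, are the main partners of principal neurons, and their calcium influx starts synaptic plasticity. Grin1 is spliced at 3 places, the N1 exon in the extracellular domain and the C1 exon and the C2 or C2' end in the cytoplasmic tail.

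The alternative segments on which the splice results turn are printed here, 5' to 3' on the coding strand, from GENCODE M21 transcripts on build mm10. Capitals mark the alternative segment and lower case the 15 bases of the neighbouring exons on either side, where these are given. All lie on the minus strand. The N1 exon of Grin1 (chr2:25311343-25311405) has 63 bases, or 21 codons. The C1 exon (chr2:25294438-25294548) has 111 bases, or 37 codons. The C2 and C2' ends start at different places in the last exon, and the first 30 bases of each are shown (chr2:25292455-25292484 for C2 and chr2:25292099-25292128 for C2'). The optional segment of Grin3a (chr4:49665566-49665625) has 60 bases, or 20 codons.
Grin1 N1 exon: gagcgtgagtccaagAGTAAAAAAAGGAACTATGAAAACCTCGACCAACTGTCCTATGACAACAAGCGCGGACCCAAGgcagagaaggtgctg
Grin1 C1 exon: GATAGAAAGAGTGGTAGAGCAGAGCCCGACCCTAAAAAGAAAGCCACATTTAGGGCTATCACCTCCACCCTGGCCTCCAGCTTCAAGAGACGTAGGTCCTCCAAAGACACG
Grin1 C2 end: AGCACCGGGGGTGGACGCGGCGCTTTGCAA
Grin1 C2' end: CAGTACCATCCCACTGATATCACGGGCCCG
Grin3a insert: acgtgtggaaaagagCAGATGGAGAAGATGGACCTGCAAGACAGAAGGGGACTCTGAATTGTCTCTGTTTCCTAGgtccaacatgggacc
N1 and C1 are each a multiple of 3 bases, so the reading frame after them is the same with and without them. Splicing to the C2' end removes 356 bases (chr2:25292129-25292484), which takes out the C2 coding stretch and its stop codon. The C2 form has 114 coding bases in the last exon, against 66 for C2', which is read in another frame. In background, N1 codes for a positively charged loop that speeds channel closure, C1 holds an endoplasmic reticulum retention motif and phosphorylation sites, and C2' ends in a motif that binds PDZ proteins and favours export to the surface.

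Annotated genes held 28356913 expected counts in replicate 2, against 34147402 in replicate 1. A gene was called detected at a TPM (a level corrected for transcript length and scaled to the same total in each library) of at least 1 in both animals, and this held for 15245 annotated genes, or 27.5%. All 11 markers of hippocampal principal neurons were detected, with a summed level of 3479 TPM in replicate 2 and 3139 TPM in replicate 1. Camk2a, Nrgn and Slc17a7 made up most of this sum. They had 1633, 682 and 613 TPM in replicate 2 and 1486, 577 and 592 TPM in replicate 1. The highest of the other principal neuron markers was Wfs1 in replicate 2, at 127 TPM, and Mpped1 in replicate 1, at 96.4 TPM. Markers of other regions were detected as well, 4 of 4 for neocortex, 5 of 6 for thalamus, 4 of 5 for striatum and 2 of 4 for cerebellar granule cells, so detection alone does not single out hippocampus. Their summed levels were at most 97.3 TPM in replicate 2 and 95.6 TPM in replicate 1. The sums are of different genes, so their sizes do not measure how much of each region was present. None of the 67 markers listed for 12 cell types and regions was at a count of 0 in both animals. The libraries differed in choroid plexus markers, of which 4 of 8 were detected in both, and whose summed level was 649 TPM in replicate 2 and 30.2 TPM in replicate 1. The part of this difference in the values below was not tested. In bulk tissue, fewer cells of a type and less RNA per cell cannot be told apart.

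Of the 7 subunit genes, 6 were detected and Grin3b was not. Grin1, the obligatory subunit (ENSMUSG00000026959.13, chr2:25291181-25319187, minus strand), had 224.8 TPM in replicate 2 and 199 TPM in replicate 1. Grin2a (ENSMUSG00000059003.12, chr16:9567898-9995560, minus strand) had 207 TPM in replicate 2 and 181 TPM in replicate 1. Grin2b (ENSMUSG00000030209.14, chr6:135713233-136173511, minus strand) had 145 TPM in replicate 2 and 138 TPM in replicate 1. These 3 genes stood well above the others in both animals, Grin1 at the 98.7th percentile of protein-coding genes in replicate 2 and the 98.4th in replicate 1, Grin2b at the 97.3rd and 97.2nd. Grin2c (ENSMUSG00000020734.13, chr11:115249169-115267243, minus strand), the subunit typical of cerebellum and glia, had 20.4 TPM in replicate 2 and 20.8 TPM in replicate 1. Grin3a (ENSMUSG00000039579.15, chr4:49661611-49845744, minus strand), which forms channels with low calcium permeability, had 14.1 TPM in replicate 2 and 15.8 TPM in replicate 1. Grin2d (ENSMUSG00000002771.12, chr7:45831883-45878378, minus strand), a subunit of interneurons with slow kinetics, had 5.82 TPM in replicate 2 and 5.09 TPM in replicate 1. The levels of these 3 genes did not overlap between genes in either animal, and Grin2d was at the 53.6th percentile of protein-coding genes in replicate 2 and the 52.1st in replicate 1. Grin3b (ENSMUSG00000035745.9, chr10:79970715-79977190, plus strand), best known from motor neurons, had a count of 1 in replicate 2 and 3 in replicate 1, at or under the floor of 3 counts, and no fold was formed for it.

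A gap between neighbouring genes was stated as a difference only where it was larger than the SD of either gene and pointed the same way in both animals. With all transcripts summed, Grin1 exceeded Grin2a by 17.8 TPM, which was within their SDs of 18.5 and 18.9 TPM. Both genes were higher in replicate 2, so within each animal the gap was alike, 17.4 TPM in replicate 2 and 18.1 TPM in replicate 1. Each later step of the order, Grin2a over Grin2b, Grin2c, Grin3a, Grin2d and Grin3b, exceeded the SDs. The step between Grin1 and Grin2a changed when the sum was limited to transcripts with a complete coding sequence, meaning at least 80% of the longest coding sequence of the gene, a limit set after the values were seen. On that basis Grin1 had 189 TPM in replicate 2 and 176 TPM in replicate 1, and Grin2a had 146 TPM in replicate 2 and 131 TPM in replicate 1. The gap of 43.6 TPM exceeded the SDs of 9.27 and 10.5 TPM, and in the second transcript table, made from the same libraries in the column layout of kallisto, the gap again exceeded both SDs, of 8.83 and 8.61 TPM.

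**Figure D1:**
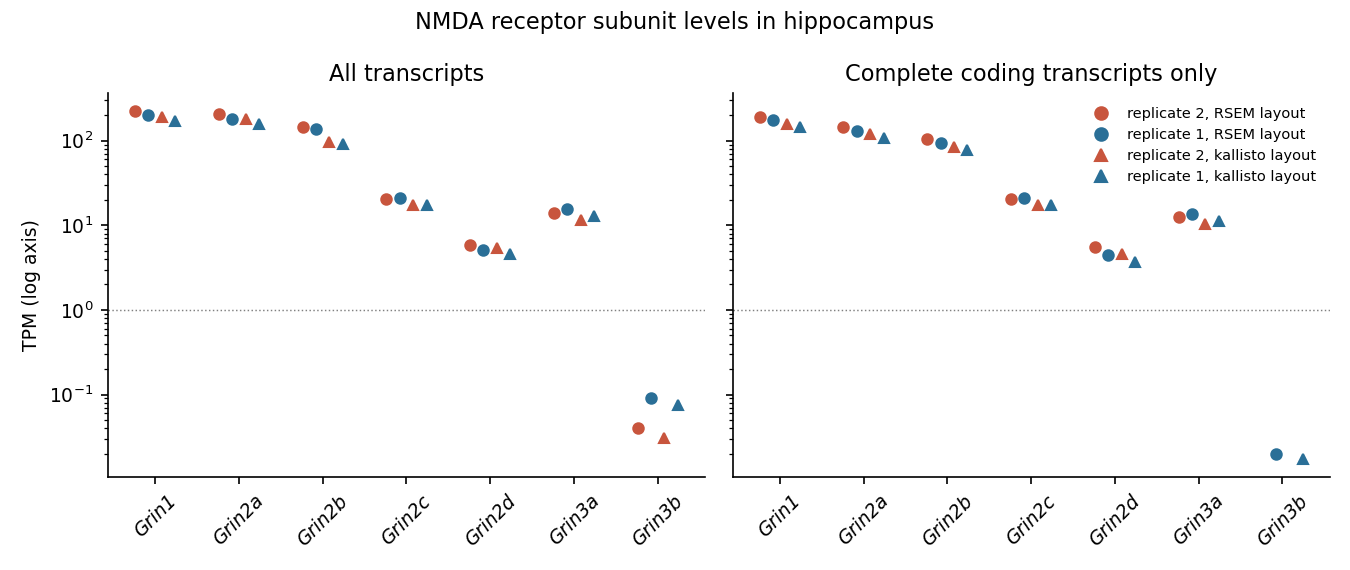
Level of each subunit gene in TPM on a log axis, for all transcripts (left) and complete coding transcripts (right); red marks replicate 2, blue replicate 1, circles the first table (RSEM layout) and triangles the second (kallisto layout), and the dotted line is a TPM of 1. Grin1, Grin2a and Grin2b lie between 76.7 and 224.8 TPM and Grin3b below 1; Grin3b is listed at 0 complete coding TPM in replicate 2 and has no mark there.

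The share of a gene's TPM in complete coding transcripts differed among the subunits. It was 84.1% in replicate 2 and 88.5% in replicate 1 for Grin1, and 70.5% in replicate 2 and 72.7% in replicate 1 for Grin2a. For Grin2b it was 72.3% in replicate 2 and 68.6% in replicate 1, but 87.8% and 84.1% in the second table. Grin2c has complete coding transcripts only, and Grin3a had 89.0% in replicate 2 and 86.6% in replicate 1. Grin2d had 94.5% in replicate 2 and 88.8% in replicate 1. The rest of Grin2a was shared by the 602-base noncoding Grin2a-205, at 30.03 TPM in replicate 2 and at 22.7 TPM in replicate 1, the intron-retaining Grin2a-204, at 19.1 and 15.5 TPM, and the intron-retaining Grin2a-203, at 11.97 and 11.04 TPM. The second table gave Grin2a-205 a higher level, 43.0 TPM in replicate 2 and 34.9 TPM in replicate 1, and put Grin2a-203 at or near 0.

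Grin2b also has short transcripts annotated as protein-coding with a partial coding sequence, whose levels differed between animals and tables. Grin2b-204, with 35 codons, had 9.03 TPM in replicate 2 and 33.1 TPM in replicate 1 in the first table and 0 in both animals in the second. Grin2b-206, with 36 codons, had 15.9 TPM in replicate 2 and was listed at 0 in replicate 1, while the second table gave 0.0668 TPM in replicate 2 and 12.1 TPM in replicate 1. Grin2b-203 had 2.48 TPM in replicate 2 and 0 in replicate 1, against 9.49 TPM and 0 in the second table. Grin2b-205, with 337 codons, had 12.8 TPM in replicate 2 and 10.3 TPM in replicate 1, against 2.23 and 2.39 TPM in the second table. Which of these short Grin2b transcripts was listed as present thus differed between animals and between tables. The tables take different lengths off each transcript before dividing, 100 bases in the first and 248 bases in the second for the subunits' complete transcripts, and the part of this in the gaps was not tested.

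The 8 coding transcripts of Grin1 are the full set of its 3 splice choices, each with its own coding sequence. These run from 885 codons with neither N1 nor C1 and the C2' end to 959 codons with N1, C1 and C2. The annotated transcripts also differ before the start codon. The N1 forms have 209 bases there, Grin1-205 has 301, and the other forms without N1 have 234. The part of this in the levels of the forms and the N1 share was not tested. Grin1-201, with C1 and C2 and without N1, was the highest, at 83.8 TPM in replicate 2 and at 70.4 TPM in replicate 1. Next was Grin1-205, with C2' and without N1 or C1, at 55.3 TPM in replicate 2 and at 49.3 TPM in replicate 1. Grin1-207, with N1 and C2' and without C1, was listed at 0 TPM in both animals in both tables, although its posterior mean count, an average over the possible read assignments, was 183 in replicate 2 and 179 in replicate 1. The second table also put Grin1-201 first, at 53.2 TPM in replicate 2 and at 45.5 TPM in replicate 1, and Grin1-205 next, at 50.3 and 42.5 TPM, so the distance between them was smaller there.

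The other single forms of Grin1 were not settled by these libraries. Grin1-203, with N1 and C2 and without C1, had 23.5 TPM in replicate 2 and 0.01 TPM in replicate 1. Grin1-208, with N1, C1 and C2', was listed at 0 TPM in replicate 2 and had 21.8 TPM in replicate 1. Grin1-204, with N1, C1 and C2, was listed at 0 in both animals, yet the second table gave it 13.0 TPM in replicate 2 and 9.42 TPM in replicate 1. Grin1-203 and Grin1-208 thus took turns at or near 0, and the deposited posterior SD, which measures how freely reads could be assigned elsewhere, was large beside these counts. Grin1-203 had 1685 counts with a posterior SD of 362 in replicate 2 and 1.25 counts with a posterior SD of 340 in replicate 1. Grin1-204 had 0 counts in both, with a posterior SD of 401 in replicate 2 and 274 in replicate 1. The posterior mean gave Grin1-203 a count of 792 in replicate 2 and 526 in replicate 1, and Grin1-204 a count of 519 and 326. For Grin1-208 it was 229 in replicate 2 and 763 in replicate 1. Averaging thus brought the animals closer for Grin1-203 and Grin1-208 and gave Grin1-204 counts in both.

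The remaining forms without N1 also changed places. Grin1-202, with C2 and without C1, had 13.8 TPM in replicate 2 and 29.6 TPM in replicate 1, whereas the second table gave 25.2 and 21.1 TPM. Grin1-206, with C1 and C2', had 12.5 TPM in replicate 2 and 4.78 TPM in replicate 1, whereas the second table gave 8.44 and 19.3 TPM. For both forms the animal with the higher listed TPM differed between the tables. The posterior mean TPM of the first table was 25.7 in replicate 2 and 22.4 in replicate 1 for Grin1-202. For Grin1-206 it was 9.05 in replicate 2 and 17.35 in replicate 1. By this mean the animal with the higher level was the same as in the second table for both forms.

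**Figure D2:**
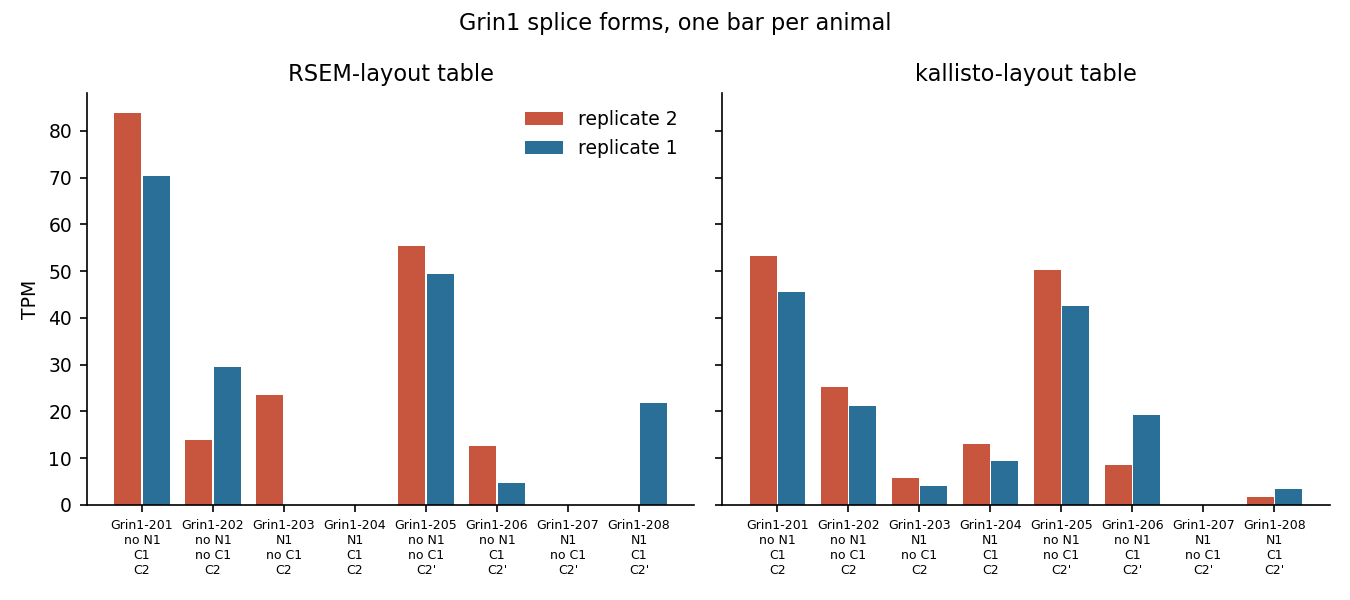
Level in TPM of each of the 8 coding Grin1 transcripts, with a red bar for replicate 2 and a blue bar for replicate 1, in the first table (left, RSEM layout) and the second (right, kallisto layout); the segments present are written under each name. Grin1-201 and Grin1-205 are the highest in both panels, and N1 forms such as Grin1-203 and Grin1-208 are at or near 0 in 1 animal on the left.

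Shares were also summed over all forms that carry a segment. The N1 exon was present in 12.5% of complete coding Grin1 TPM in replicate 2 and 12.4% in replicate 1, and in the second table in 13.0% and 11.6%. Most Grin1 RNA thus lacked N1 in both animals and both tables. The C1 exon was present in 51.0% in replicate 2 and 55.1% in replicate 1, and in the second table in 48.5% and 53.4%. These values fall on both sides of an even split, so neither choice of C1 stood clearly ahead. The C2' end was used by 35.9% in replicate 2 and 43.1% in replicate 1, and in the second table by 38.3% and 44.9%, so C2 was the more frequent end in both animals. The largest gap between animals for a single form was 12.4 percentage points in the first table, for Grin1-203, and 7.94 percentage points in the second, for Grin1-206.

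The 4 tails that C1 and the end can form were also counted, since they set the trafficking signals of the subunit. C1 with C2, the tail of the GluN1-1 form, held 44.4% in replicate 2 and 40.0% in replicate 1. C2' without C1, the tail of GluN1-4, held 29.3% in replicate 2 and 28.0% in replicate 1. C2 without C1, the tail of GluN1-2, held 19.8% in replicate 2 and 16.8% in replicate 1. C1 with C2', the tail of GluN1-3, held 6.63% in replicate 2 and 15.1% in replicate 1, and it was the tail with the widest spread. The second table gave C1 with C2' 6.45% in replicate 2 and 15.6% in replicate 1. Both tables come from the same libraries, so their agreement is no second measurement.

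**Figure D3:**
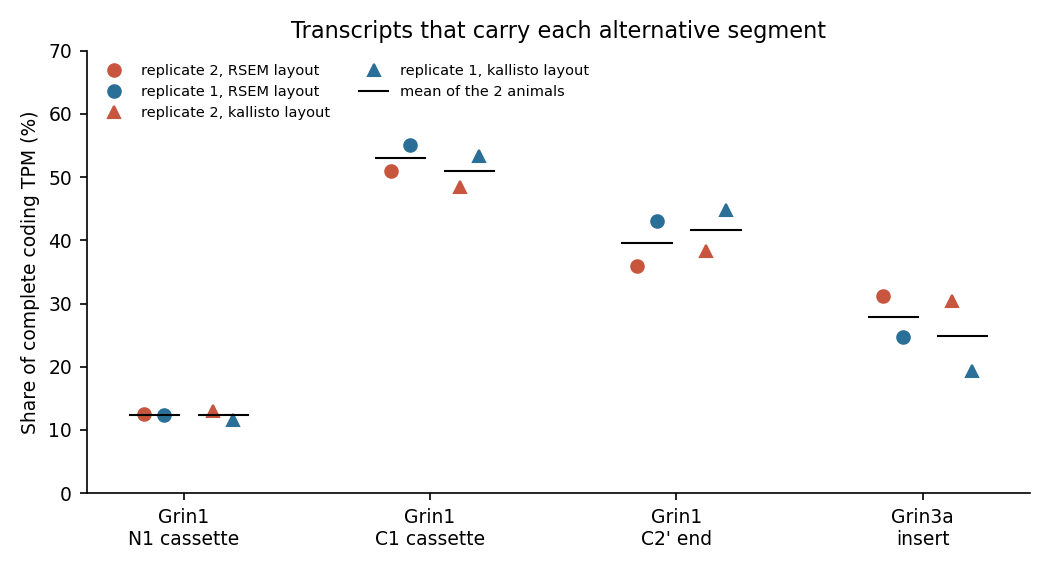
Share (%) of complete coding TPM held by transcripts with each alternative segment, for Grin1 N1, C1 and C2' and the Grin3a insert; red marks replicate 2, blue replicate 1, circles the first table, triangles the second, and the line is the mean of the 2 animals. N1 lies between 11.6% and 13.0%, C1 between 48.5% and 55.1% and C2' between 35.9% and 44.9%.

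Beside the coding forms, Grin1 has noncoding processed transcripts. Grin1-214 was the highest of them, at 11.4 TPM in replicate 2 and at 7.62 TPM in replicate 1, followed by Grin1-211 at 8.81 and 6.26 TPM, Grin1-213 at 7.84 and 4.96 TPM, Grin1-212 at 6.04 and 3.52 TPM and Grin1-210 at 1.72 and 0.46 TPM. All 5 were higher in replicate 2 in both tables, as was the Grin1 total, at 224.8 against 199 TPM in the first. Grin1-210 rested on 10.8 counts in replicate 2 and 3.48 in replicate 1. Grin1-209 was listed at 0.

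The 4 GluN2 genes each encode 1 complete coding sequence, although all have more than 1 complete transcript. Their complete transcripts therefore differ outside the coding sequence, and the data bear on untranslated regions and not on protein forms. The coding sequences have 1464 codons for Grin2a, 1482 for Grin2b, 1239 for Grin2c and 1323 for Grin2d. GluN2A and GluN2B are known for long cytoplasmic tails, which bind CaMKII and PSD-95. Grin2a was carried mainly by Grin2a-206, which has 9929 bases after the stop codon, with 70.5% of complete coding TPM in replicate 2 and 71.1% in replicate 1. Grin2b was carried mainly by Grin2b-201, which has 18865 bases after the stop codon, with 77.0% in replicate 2 and 77.0% in replicate 1. In the second table these shares were 69.7% and 70.6% for Grin2a-206 and 83.9% and 83.2% for Grin2b-201. The long transcript thus led for both genes in both animals.

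The shorter transcripts of Grin2a were divided differently by the tables. Grin2a-202, with 86 bases after the stop codon, held 22.9% in replicate 2 and 28.9% in replicate 1, against 5.32% and 8.19% in the second table. Grin2a-201, annotated with no base before the start codon or after the stop codon, held 6.58% in replicate 2 and was listed at 0 in replicate 1, against 25.0% and 21.2% in the second table. The shorter Grin2b-202, with 2272 bases after the stop codon, held 23.0% in both animals, against 16.1% in replicate 2 and 16.8% in replicate 1 in the second table.

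Grin2c-201 and Grin2c-202 differ before the start codon, with 157 and 773 bases there. Grin2c-201 had 9.50 TPM in replicate 2 and 14.0 TPM in replicate 1, and Grin2c-202 had 10.9 TPM in replicate 2 and 6.77 TPM in replicate 1. The leading Grin2c transcript thus differed between animals, whereas the gene total differed by less than 1 TPM. The second table had Grin2c-202 ahead in both animals, at 14.1 and 9.51 TPM against 3.27 and 8.04 TPM for Grin2c-201. Grin2d-201 held 68.7% of complete coding Grin2d TPM in replicate 2 and 58.2% in replicate 1, with Grin2d-203 holding the rest, and Grin2d-201 also led in the second table, at 63.5% and 53.5%. At 3.78 and 2.63 TPM for Grin2d-201, the counts behind these shares were few, 355 in replicate 2 and 295 in replicate 1.

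Set against each other, Grin2a and Grin2b made up nearly all of the summed GluN2 level. Over all transcripts Grin2a held 54.7% in replicate 2 and 52.4% in replicate 1, Grin2b 38.3% and 40.1%, Grin2c 5.40% and 6.03%, and Grin2d 1.54% and 1.48%. The second table gave Grin2a 60.0% in replicate 2 and 57.8% in replicate 1 and Grin2b 32.4% and 33.9%, a step larger than the SD between animals of 1.66 percentage points for Grin2a. Limited to complete coding transcripts, the tables came together, with Grin2a at 52.5 ± 0.371% in the first and 52.6 ± 0.431% in the second, and Grin2b at 37.8 ± 0.124% and 37.4 ± 0.0326% (SD, n = 2 animals). The ratio of Grin2a to Grin2b was 1.39 in both animals on this basis, against 1.43 in replicate 2 and 1.31 in replicate 1 with all transcripts.

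**Figure D4:**
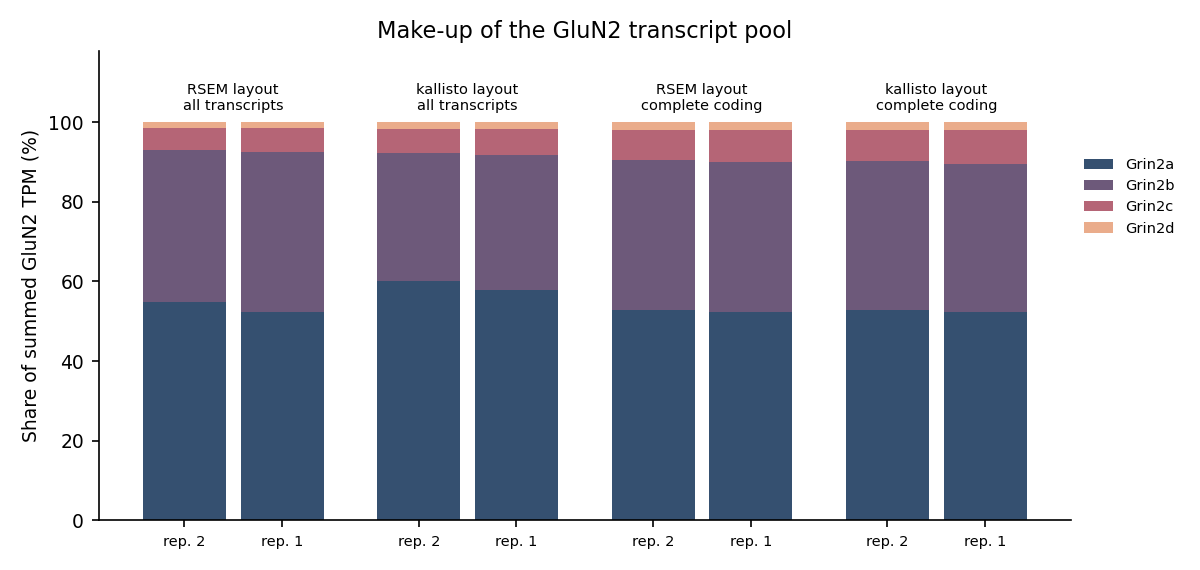
Share (%) of the summed TPM of Grin2a, Grin2b, Grin2c and Grin2d held by each gene, 1 bar per animal, for both tables with all transcripts and with complete coding transcripts only. Grin2a is the largest part of every bar, at 52.2% to 60.0%, and the 4 complete coding bars on the right differ less than the 4 on the left.

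Each GluN1 pair is built with GluN2 or GluN3 subunits, so the ratio of Grin1 to the summed GluN2 genes was also formed. It was 0.594 in replicate 2 and 0.576 in replicate 1 over all transcripts, and 0.682 in replicate 2 and 0.699 in replicate 1 over complete coding transcripts. Grin1 RNA was thus below the summed GluN2 RNA in both animals on either basis. RNA ratios are no measure of receptor numbers, and protein was not measured here.

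Grin3a, the only GluN3 gene detected, has 2 complete coding transcripts, Grin3a-202 with the printed insert (1135 codons) and Grin3a-201 without it (1115 codons). A longer GluN3A form with extra residues in the cytoplasmic tail is also known from rat. The form without the insert led in both animals, at 8.66 TPM in replicate 2 and at 10.3 TPM in replicate 1, against 3.92 and 3.36 TPM for the form with it. The insert was present in 31.2% of complete coding Grin3a TPM in replicate 2 and 24.6% in replicate 1, and in the second table in 30.3% and 19.3%. The noncoding Grin3a-203 had 1.43 TPM in replicate 2, against 1.96 TPM in replicate 1. For Grin3b, 2 partial transcripts and the complete Grin3b-201 were listed at or below 0.07 TPM in both animals.

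Counts were compared between the animals as replicate 2 over replicate 1, with 95% counting intervals after scaling by TMM, which assumes that most genes do not differ. These ratios compare 2 libraries and carry no p-value. Of the 6 subunit genes with a mean count of at least 50, the interval excluded a ratio of 1 for 5, namely 4 higher and 1 lower in replicate 2 under TMM. The background was high: 44.3% of the 14434 genes tested had such an interval, 18.7% higher and 25.6% lower, and intervals narrow with the count. None of the 6 differed 2-fold, a size that 1.10% of all genes tested reached. The median log2 ratio was 0.14 over the 6 genes, against -0.02 over all genes tested, and the median size of the ratio over all genes was 0.14.

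Grin1 had 14528 counts in replicate 2 and 15706 in replicate 1, a log2 ratio of 0.15 (interval 0.11 to 0.18). Grin2a had 31789 and 34267 counts and a log2 ratio of 0.15 (0.13 to 0.17), and Grin2b had 38028 and 41189 counts and a log2 ratio of 0.14 (0.12 to 0.16). The 3 abundant subunits were thus higher in replicate 2 under TMM by nearly the same step, 1.10- to 1.11-fold, and lower under spike-in scaling. Grin2d had 516 counts in replicate 2 and 511 in replicate 1, and its log2 ratio was 0.27 (0.09 to 0.45), the largest of the 6. Grin3a went the other way, with 1729 counts in replicate 2 and 2277 in replicate 1 and a log2 ratio of -0.14 (-0.23 to -0.05). Grin2c, with 1624 and 1918 counts, had a log2 ratio of 0.02 (-0.08 to 0.11), and its interval held 1.

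Scaling by spike-in totals in place of TMM moved the median of all genes to -0.26 and turned the sign of 4 subunit genes. Grin1 then had a log2 ratio of -0.10, Grin2a -0.093, Grin2b -0.10 and Grin2c -0.22. Grin2d kept its sign at 0.03, with an interval of -0.15 to 0.21 that held 1. Under that scaling 5 of the 6 subunit genes were lower in replicate 2 and none higher, where 66.4% of all genes tested were lower and 3.42% higher. Since a scaling shifts all genes by the same step, distances from the median gene are fixed, at 0.17 above it under TMM for Grin1 and -0.12 for Grin3a. Marker lists differed between the animals too. Under TMM the median log2 ratio was 0.12 for principal neuron markers, with 7 of 11 higher and 2 lower, and -0.10 for interneuron markers, with 0 of 7 higher and 4 lower. It was 0.48 for oligodendrocyte markers, 0.31 for endothelial markers and 2.81 for the 6 choroid plexus markers tested, all 6 of them higher. Under spike-in scaling the median was -0.13 for principal neuron, -0.34 for interneuron, 0.24 for oligodendrocyte, 0.07 for endothelial and 2.58 for choroid plexus markers. The part of cell makeup in the subunit ratios was not tested.

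**Figure D5:**
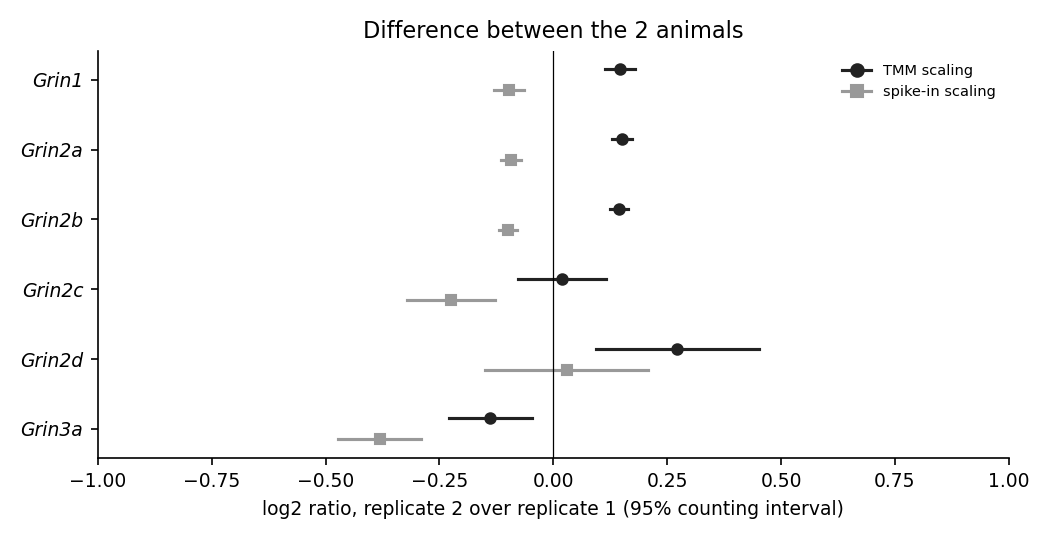
Log2 ratio of replicate 2 over replicate 1 for the 6 subunit genes tested, with 95% counting intervals, by TMM scaling (black circles) and by spike-in totals (grey squares); the vertical line is a ratio of 1. Grin1, Grin2a and Grin2b lie to its right under TMM and to its left under spike-in scaling, and Grin3a lies left of it under both.

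Genes of the NMDA receptor pathway were taken from a list of 49 in 6 groups. Of these, 47 were detected, 19 were higher and 9 lower in replicate 2 by their interval under TMM, none differed 2-fold, and the median log2 ratio was 0.04. Over all genes tested the shares were 18.7% higher, 25.6% lower and 1.10% 2-fold, and 59.1% of protein-coding genes were detected. Under spike-in scaling 2 of the 47 were higher and 35 lower, against 3.42% and 66.4% of all genes. The counts by group that follow are those under TMM. Among 13 genes that supply or clear the co-agonists, 11 were detected, 3 were higher and 1 lower. Psat1, an enzyme of serine synthesis, was the highest, at 57.4 ± 1.63 TPM. The undetected pair were Slc6a5, a glycine transporter of spinal and brainstem neurons, at 0.04 TPM, and Dao, which degrades D-serine, at 0.08 TPM in replicate 2 and at 0.03 TPM in replicate 1.

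All 10 scaffolds and linkers were detected, 4 higher and 2 lower. They ranged up to Dlg4, which encodes PSD-95, the scaffold that anchors GluN2 tails, at 438 TPM in replicate 2 and at 403 TPM in replicate 1, and down to Actn2, an actin linker that binds the GluN1 tail, at 8.14 ± 0.255 TPM. All 9 kinases and phosphatases were detected, 4 higher and 1 lower. Camk2a, the kinase that docks on GluN2B, was the highest at 1633 TPM in replicate 2 and at 1486 TPM in replicate 1, and Csnk2a1, a casein kinase subunit, the lowest at 46.0 ± 2.77 TPM. All 5 transport genes were detected, 3 higher and 1 lower. Nsf, a membrane fusion ATPase, had 584 ± 7.61 TPM, and Kif17, the motor that carries GluN2B along dendrites, had 13.9 ± 1.12 TPM.

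Of the 7 calcium-dependent effectors, all detected, 4 were higher and 2 lower. Nos1, the nitric oxide synthase coupled to NMDA receptors through PSD-95, was the lowest by mean TPM. It had 21.7 TPM in replicate 2 and 40.0 TPM in replicate 1, where Camk4 was lower, at 33.1 TPM. The log2 ratio of Nos1, -0.66 (-0.72 to -0.60), was the largest in size in the group. Of the 5 transcription factors that act on subunit genes, 1 was higher and 2 lower. Mef2c had 71.8 ± 8.59 TPM and a log2 ratio of 0.38, and Rest, a repressor of neuronal genes, had 2.26 TPM in replicate 2 and 2.23 TPM in replicate 1.

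The nearest protein-coding genes in level, by the summed difference in log2 TPM over the 2 animals, were Mt2, a metallothionein, and Prepl for Grin1, at 224.3 and 223 TPM in replicate 2 and 201 and 204 TPM in replicate 1. For Grin2a they were Dctn1, a dynactin subunit, and Prkce, a protein kinase C. For Grin2b they were Eif5, a translation initiation factor, and Lrrc4b, a synaptic adhesion protein. Those of Grin2c were Pkp2 and 0610009B22Rik, those of Grin2d were Rai2 and Rmdn2, and those of Grin3a were Ap4m1 and Sept2. With 2 samples this is likeness in level and says nothing of a shared pattern.

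Several genes overlap the subunit genes, and the sources used here do not say whether counting used strand. Grin1os, on the opposite strand, shares 1307 exon bases with Grin1 and had a count of 0 in both animals. Gm45441, opposite Grin2d, shares 643 exon bases with it and had 98 counts in replicate 2 and 79 in replicate 1, against 516 and 511 for Grin2d. How many reads of one were counted on the other was not tested. Tmem259, opposite Grin3b, shares 1059 exon bases with it and had 1958 counts in replicate 2 and 2331 in replicate 1, next to 1 and 3 for Grin3b. Opposite Grin2b, Gm26653 shares 49 exon bases and had 21 counts in replicate 2 and 27 in replicate 1, and Gm14329 and Gm14330 had 0. Kdelr1, opposite Grin2d, and Ppp3r2, within Grin3a on the same strand, share no exon base with them. Kdelr1 had 826 counts in replicate 2, against 955 in replicate 1, and Ppp3r2 had 14, against 17. Gm12459, within Grin3a, had 0 counts in replicate 2 and 2 in replicate 1. The small RNA genes Gm22892, Gm25837 and Gm22098, within Grin2b, Grin2c and Grin2d, had 0 in both.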

How the data were processed

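Expected counts, deposited by the authors without normalisation in a gene table and a first transcript table of RSEM layout per the file headers, were used for ratios. Estimated counts and TPM of a second transcript table, of kallisto layout per the file headers, served as an alternative. The deposited TPM, which the authors normalised for length, was used for levels and shares. The posterior SD of each count is a deposited signal in counts and covers read assignment only. Build mm10 is given per the labels, and GENCODE M21 per accompanying file notes. The sources used here do not give the aligner, tool versions or strand setting.

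Exon structure, coding sequences and printed sequences came from GENCODE M21. Expected counts (28356913 in replicate 2, 34147402 in replicate 1, on annotated genes) were rounded, scaled by TMM in edgeR 4.0.16 under R 4.3.3 with a prior count of 2, and compared where the mean count was at least 50. Intervals are exact Clopper-Pearson intervals at 95%. They cover the counting error of independent reads only. No molecular identifiers are named in the labels, so copies of 1 molecule would count as separate reads. The computation of ratios and intervals was tested on simulated counts, and no p-value was computed.

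The subunits and the pathway and marker lists were chosen with earlier results of these data known. The genes named are the 7 subunits, their transcripts at a mean TPM of at least 1 in either table and otherwise the highest, the highest and lowest gene of each pathway group, overlapping genes and the 2 nearest in level. A gene that this rule takes in is not reported here. Other transcripts of the subunits and Dao were named after their values were seen. Alternatives were DESeq2 1.42.0 size factors, spike-in totals, total counts, posterior means, count minimums of 10 or none, a prior count of 0.5, a 1.5-fold limit, detection at 0.5 or 5 TPM, the second table and leaving out each replicate.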

Additional observations from a re-analysis of the deposited data

How the results depend on the processing

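The shares with C1, C2' and the Grin3a insert moved by less than their SD in the second table, by posterior mean TPM and as a share of expected counts. The 6 detected subunits stayed 6 at 0.5 and 5 TPM and in the second table. Under spike-in totals the log2 ratio reversed for Grin1 (-0.10), Grin2a (-0.093), Grin2b (-0.10) and Grin2c (-0.22), and that of Grin2d (0.03) lost its call. The number of subunit genes called stayed 5, but as 0 higher and 5 lower, with Grin2c gained and Grin2d lost. The Grin2a share of summed GluN2 was 58.9% in the second table. Grin1 over summed GluN2, 0.585 as reported, was 0.636 in the second table, 0.691 over complete coding transcripts and 0.702 over these in the second table, below 1 throughout. The N1 share was 12.3% in the second table, 12.6% by posterior mean TPM and 12.3% as a share of expected counts, moves larger than its SD of 0.0473. The share of Grin1 in protein-coding transcripts was 92.3% as a share of expected counts, against 86.3% of TPM. The cause of these moves was not tested. Leaving out 1 replicate leaves the other animal's own share or level, given in the report, which with 2 animals lies within 1 SD by construction, and no ratio, which needs both. Over all genes, 159 of 14434 tested differed 2-fold, against 1253 of 55536 with no minimum count and 748 of 18612 at a mean count of 10. At 1.5-fold 753 of 14434 differed. The split at 2-fold was 85 higher and 74 lower under TMM and 46 higher and 168 lower under spike-in totals. No paired analysis was possible because there is 1 group. The alternatives with complete coding transcripts were added after the data were seen. With 2 animals, SDs are imprecise.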
